A study of Homo sapiens with 10 samples.

Results

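The genes described are 10 components of the ATR and ATM checkpoint: ATM, ATR, ATRIP, TOPBP1, CLSPN, TIMELESS, TIPIN, CHEK1, CHEK2 and WEE1. They were selected by gene symbol, by a rule with no expression threshold, although earlier results of these data were known when the set was drawn up. They are 10 of the 62700 genes in the deposited table. All 10 passed the filter on low counts that kept 18979 genes for testing. The study sequenced poly(A)-enriched RNA of 5 CCAR1 knockout and 5 parental samples of RPE p53-/- cells, a human line from retinal pigment epithelium, to ask what loss of CCAR1 changes across the genome. CCAR1 is a regulator of cell cycle and apoptosis that the study's title describes as a splicing factor. Both genotypes lack p53, and both grew in DMEM/F12 with GlutaMAX and 10% fetal bovine serum. The labels name no DNA-damaging agent. They do not say whether the knockout line is 1 clone or whether replicates were separate cultures. The p-values therefore measure only how far these samples spread, and that spread may be technical.

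ATR and ATM are large protein kinases of the PIKK family that start the response to damaged DNA. ATM is switched on at double-strand breaks by the MRE11-RAD50-NBN complex and passes the signal to the kinase CHEK2. ATR is brought by its partner ATRIP to single-stranded DNA coated with RPA, is stimulated by TOPBP1, and passes the signal to the kinase CHEK1 with the help of claspin (CLSPN) and of the fork protection pair TIMELESS and TIPIN. WEE1 restrains CDK1 and CDK2 by phosphorylation, which the CDC25 phosphatases reverse. In cells without p53, the arrest that p53 and CDKN1A give is missing, and the ATR, CHEK1 and WEE1 branch is the one that holds cells before mitosis.

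Knockout replicates 1 to 3 held 52.6 to 56.4 M counts (M, 1e6) and parental replicates 1 to 3 held 57.3 to 65.2 M. Replicates 4 and 5 held 320.6 to 324.8 M in knockout and 327.1 to 385.4 M in parental cells. The 6 libraries with fewer counts are named shallow here and the other 4 deep, a split seen in the data. A level in CPM is the count per 1e6 counts after library scaling. Each mean ± SD has n = 5, and its SD includes the gap between the depths. CCAR1 itself was at 105.5 ± 18.5 CPM in knockout and 147.7 ± 23.5 CPM in parental cells (edgeR adjusted p = 0.0201, log2 fold change -0.48, standard error 0.14), so its transcript was reduced to 71.4% of the parental level and not lost. That call ended without parental replicate 5 (adjusted p = 0.0504), with library size only (log2 fold change -0.42, adjusted p = 0.0525) and with chromosome medians removed (-0.31, adjusted p = 0.121). Of 10 marker genes of pigment epithelium, RPE65, RLBP1, TYR and TYRP1 did not exceed 0.248 CPM in any library and were too low to test. Of the other 6, 3 rose and 0 fell (36.6% of all genes were called): OTX2 to 16.6 CPM in knockout, against 10.9 CPM in parental cells, BEST1 to 2.16 CPM, against 1.43 CPM, and LRAT to 0.619 CPM, against 0.399 CPM (edgeR adjusted p = 1.94e-04, 0.0124 and 0.0302). MITF, at 38.3 CPM in knockout and 39.1 CPM in parental cells, PMEL and SERPINF1 did not pass. Genes of skeletal muscle, a tissue these cells do not come from, summed to 153.04 to 302.2 CPM in the shallow knockout and 255.04 to 341.6 CPM in the shallow parental libraries, and to 0.309 CPM or less in every deep library. Erythroid and liver genes had the same split, with 22.3 to 181.8 and 38.1 to 70.4 CPM in the shallow knockout, 22.9 to 103.1 and 22.2 to 59.8 CPM in the shallow parental, and at most 0.204 and 0.169 CPM in the deep libraries. Their part in the members' values was not tested.

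Promoter sequences are shown for the members whose start region holds an E2F-type element, because E2F factors drive S-phase genes. TIMELESS, whose window held none, is shown too. A link of the element to the difference between genotypes was not tested. Windows from RefSeq (GRCh38.p14), 250 bases before to 50 after each transcription start, were found for 9 of the 10 members. The member without a window was WEE1, so its promoter was not examined. The letters TTTCCCGC, TTTCGCGC, TTTGGCGC and TTTGCCGC were searched on both strands, and 3 of the 14 windows of these members held at least 1 of them, 1 window each in 3 genes, against 3.31% of the 35116 windows in the table. The lines give the 100 bases before the start, and run to the end of the element where it spans the start. Capitals mark the element.
CLSPN (chr1:35769976-35770078, minus strand): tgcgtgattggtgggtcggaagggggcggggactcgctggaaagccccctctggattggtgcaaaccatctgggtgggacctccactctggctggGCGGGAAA
TOPBP1 (chr3:133661941-133662041, minus strand): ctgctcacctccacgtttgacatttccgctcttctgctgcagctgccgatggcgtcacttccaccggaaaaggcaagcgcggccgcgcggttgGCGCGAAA
TIPIN, the downstream of 2 starts (chr15:66356686-66356785, minus strand): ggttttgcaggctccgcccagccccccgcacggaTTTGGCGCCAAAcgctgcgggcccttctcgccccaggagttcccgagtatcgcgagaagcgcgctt
TIMELESS (chr12:56449427-56449526, minus strand): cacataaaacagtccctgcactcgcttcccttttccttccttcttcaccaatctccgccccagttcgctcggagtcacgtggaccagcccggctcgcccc
In CLSPN and TOPBP1 the element lies across the transcription start, and in TIPIN the same letters read on both strands as overlapping matches. The windows of ATM, ATR, ATRIP, CHEK1 and CHEK2 did not hold these letters. The letters TTTGAA, a core of the CHR element of mitotic genes, were found on either strand in 1 of the 14 windows, at 1 of the 2 starts of ATM, and in 15.2% of all windows. A match describes the letters and does not show that a factor binds there.

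Over all libraries, without a term for depth, WEE1 and TIMELESS passed as lower in CCAR1 knockout cells, and none of the 10 genes as higher. TIMELESS lost that call in 6 of 10 fits that left out 1 library, and WEE1 in 0. CLSPN and WEE1 had the log2 fold changes farthest from 0, with knockout means at 75.1% and 76.6% of parental, while CHEK1 and ATR had nearly equal means in the genotypes. In edgeR's test 2 of 10 members passed as lower and 0 as higher, beside 16.9% lower and 19.7% higher among all genes tested (36.6% in either direction). In this fit, without a term for depth, the share of members called lower is near the background. Of the members, 4 were lower and 0 higher at an unadjusted p under 0.05, beside 20.7% and 23.8% of all genes. DESeq2 called 4 lower and 0 higher, beside 20.8% and 20.5% of all genes, and limma-voom 2 and 0, beside 17.6% and 20.6%. A replicate block takes up the gap between the depths. In that fit 7 members were lower (ATM, CHEK2, TOPBP1, CLSPN, TIMELESS, TIPIN and WEE1) and 0 higher, beside 30.1% lower and 31.1% higher among all genes (61.2% in either direction). The members' median log2 fold change was -0.15, against 0.02 over all genes. The log2 fold change was below 0 for 8 of the 10. The knockout range lay wholly below the parental range for 2 members, and above it for 0, beside 14.6% of all genes lower and 16% higher (30.6% in either direction). Within both depths it lay below for 5 members and above for 0, beside 26.9% of all genes lower and 27.1% higher (53.9% in either direction). Those 5 were ATRIP, TOPBP1, CLSPN, TIMELESS and WEE1. With depth as a term 8 members were lower and 0 higher, beside 31.3% and 32.7% of all genes (64% in either direction). In the shallow libraries alone 6 were lower and 0 higher, beside 26.2% and 26.5% (52.7%), and in the deep libraries alone 7 were lower and 1 higher, beside 28.1% and 28.9% (57%).

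**Figure D1:**
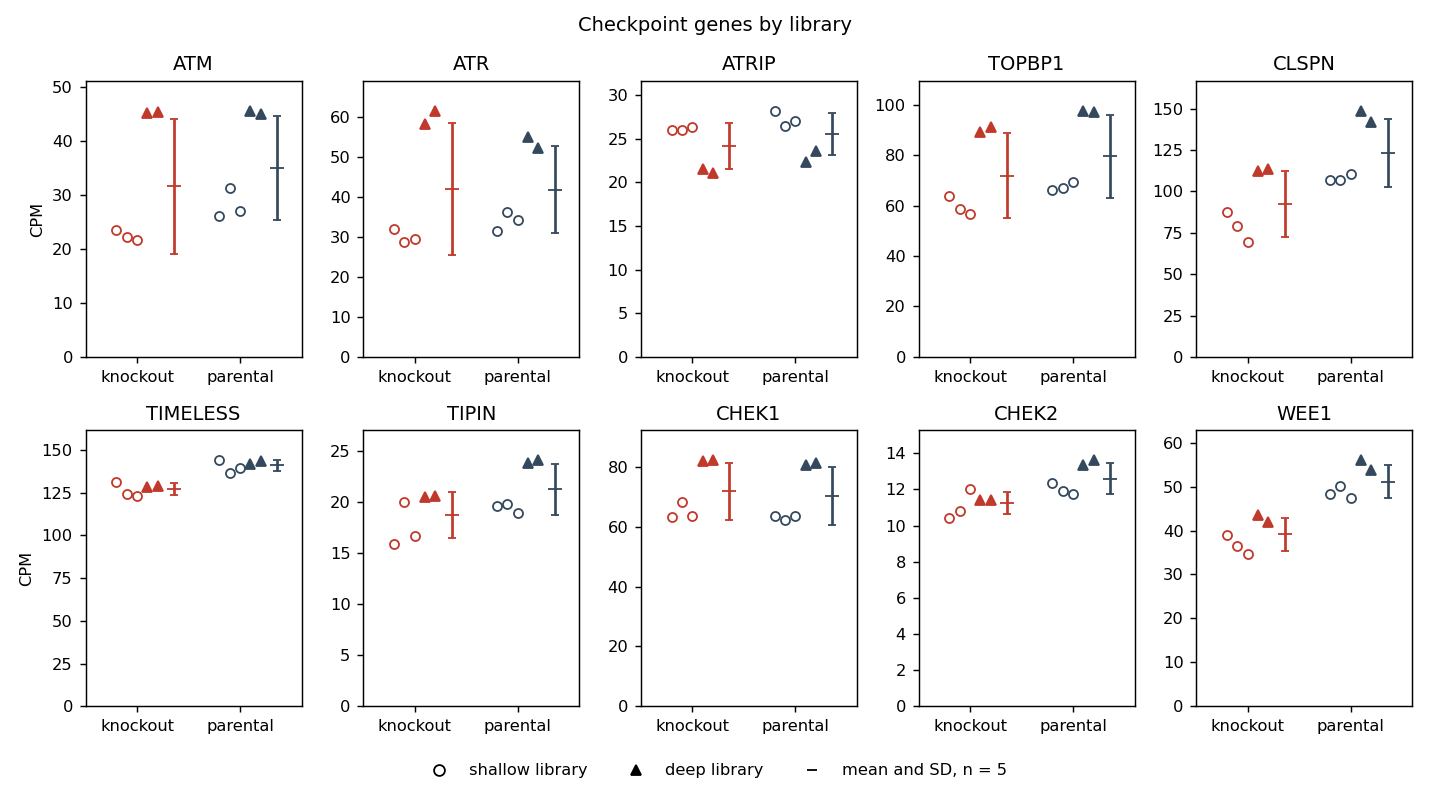
CPM of the 10 checkpoint genes in each library, with knockout left of parental, open circles for shallow and filled triangles for deep libraries, and a bar for the mean and SD of 5 libraries. The genotypes are wholly apart in TIMELESS and WEE1, and in WEE1, ATM, ATR, TOPBP1, CLSPN, CHEK1 and TIPIN the deep libraries stand above the shallow ones of their own genotype.

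WEE1 (ENSG00000166483.12, chromosome 11, 9573681 to 9593457, hg38), the kinase at the far end of the pathway, had 38.9, 36.4, 34.7, 43.6 and 42.02 CPM in knockout replicates 1 to 5, against 48.2, 50.1, 47.3, 56.1 and 53.8 CPM in parental replicates 1 to 5. Every knockout library was below every parental library. The means were 39.1 ± 3.70 CPM in knockout and 51.1 ± 3.73 CPM in parental cells, which is 76.6% of the parental level. On the log2 scale WEE1 fell by 0.39 (standard error 0.082, edgeR adjusted p = 0.00384). An exact two-sided permutation test of log2 CPM gave p = 0.00794, the smallest value that 5 against 5 libraries allow. The shallow knockout libraries averaged 75.6% of parental and the deep ones 77.9%.

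TIMELESS (ENSG00000111602.12, chromosome 12, 56416373 to 56449403), which holds the replication fork together with TIPIN, had 131.4, 124.2, 122.8, 128.2 and 129.05 CPM in knockout and 144.1, 136.2, 139.1, 141.6 and 143.2 CPM in parental replicates 1 to 5. These ranges did not meet, and the shallow and deep libraries of a genotype lay at one level. At 127.2 ± 3.55 CPM in knockout and 140.8 ± 3.19 CPM in parental cells the difference was small, 90.3% of parental. On the log2 scale TIMELESS fell by 0.15 (standard error 0.047, edgeR adjusted p = 0.0319, exact two-sided permutation p = 0.00794). The edgeR call ended without knockout replicate 2 (adjusted p = 0.0584) or 3 (0.0555), and without parental replicate 1 (0.0626), 3 (0.0523), 4 (0.0634) or 5 (0.0687). It also ended with the median change of chromosome 12, -0.07, removed (log2 fold change -0.08, adjusted p = 0.265), and was kept with the replicate block (adjusted p = 0.00286).

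TIPIN (chromosome 15, 66336206 to 66386746), the partner of TIMELESS, had 15.8, 19.97, 16.6, 20.5 and 20.6 CPM in knockout and 19.5, 19.8, 18.9, 23.7 and 24.1 CPM in parental replicates 1 to 5. Knockout replicate 2 was above the 3 shallow parental libraries, and the other shallow knockout libraries were below them. Its log2 fold change, -0.18 ± 0.11 (standard error), did not pass (edgeR adjusted p = 0.227), and passed with the replicate block (adjusted p = 0.00818).

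CLSPN (ENSG00000092853.14, chromosome 1, 35720218 to 35769967) encodes claspin, the adaptor through which ATR reaches CHEK1. It had 87.3, 79.4, 69.7, 112.4 and 113.7 CPM in knockout, against 107.2, 107.2, 110.7, 148.9 and 142.2 CPM in parental replicates 1 to 5. Each knockout library was below the parental libraries of its own depth, while the deep knockout libraries exceeded the shallow parental ones. The means of 92.5 ± 19.8 CPM in knockout and 123.2 ± 20.6 CPM in parental cells put the knockout at 75.1% of the parental level.

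The log2 fold change of CLSPN, -0.41 with a standard error of 0.16, did not pass the test over all libraries (edgeR adjusted p = 0.0678). It passed without knockout replicate 4 (adjusted p = 0.0379) or 5 (0.0362). With the replicate block it was -0.42 with a standard error of 0.053 (adjusted p = 7.49e-05). The shallow libraries alone gave -0.47 (adjusted p = 7.09e-05) and the deep libraries alone -0.38 (adjusted p = 2.5e-09). Its E2F-type element was described above.

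TOPBP1 (chromosome 3, 133598175 to 133662380), which stimulates ATR, had 63.8, 58.8, 56.7, 89.1 and 91.05 CPM in knockout and 66.3, 67.2, 69.5, 97.7 and 97.3 CPM in parental replicates 1 to 5. Within each depth the knockout libraries were the lower ones, at 88.3% of parental among shallow and 92.4% among deep samples. TOPBP1's log2 fold change of -0.15 (standard error 0.18) had an edgeR adjusted p of 0.589, and of 0.00993 with the replicate block.

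ATM (ENSG00000149311.20, chromosome 11, 108222484 to 108369102), the kinase of the double-strand break response, had 23.6, 22.1, 21.6, 45.1 and 45.4 CPM in knockout and 26.1, 31.3, 26.98, 45.6 and 45.01 CPM in parental replicates 1 to 5. The shallow knockout libraries were all below the shallow parental ones, at 79.9% of their mean, and the deep libraries of the genotypes overlapped, at 99.8%. Over all libraries ATM had a log2 fold change of -0.15 (standard error 0.27, edgeR adjusted p = 0.740), and with the replicate block -0.18 (adjusted p = 0.0489).

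ATR (ENSG00000175054.16, chromosome 3, 142449235 to 142578826) had 31.9, 28.8, 29.6, 58.3 and 61.7 CPM in knockout and 31.6, 36.3, 34.4, 54.99 and 52.2 CPM in parental replicates 1 to 5. In the deep libraries both knockout samples were above both parental ones, while in the shallow libraries the knockout mean was the lower one, at 88.4% of parental, and the ranges met. ATR had a log2 fold change of 0.01 over all libraries (standard error 0.27, edgeR adjusted p = 0.988) and -0.03 with the replicate block (adjusted p = 0.754). The shallow libraries alone gave -0.18 (adjusted p = 0.0258) and the deep libraries alone 0.15 (adjusted p = 0.00166), which are calls in opposite directions.

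The difference between depths was tested as the interaction of genotype and depth. For ATR it was 0.34 on the log2 scale, deep minus shallow, with a standard error of 0.086 (unadjusted p = 0.00157, edgeR adjusted p = 0.0877). For ATM it was 0.32 with a standard error of 0.091 (unadjusted p = 0.00361, edgeR adjusted p = 0.111). No member passed this edgeR test, in which 0.601% of all genes were called, and these 2 members were below an unadjusted p of 0.05. Without a filter on low counts both passed (ATM edgeR adjusted p = 0.0183, ATR 0.00559), and so they did without knockout replicate 1 (ATM 0.0200, ATR 0.00768). The interaction was not particular to these members. Of other PIKK family genes, PRKDC had 0.54 (edgeR adjusted p = 0.0163) and SMG1 0.45 (0.0394), which passed. TRRAP, at 0.31 (0.0731), and MTOR, at 0.19 (0.277), did not pass. ATM and ATR were also the members that stood highest in the deep libraries over the shallow ones, by 2.02-fold and 1.99-fold in knockout and 1.61-fold and 1.57-fold in parental cells. TIMELESS stood at 1.02-fold in both genotypes, and ATRIP was lower in the deep libraries, at 0.816-fold in knockout and 0.844-fold in parental cells. What sets the libraries apart is not in the labels, and its part in these differences was not tested.

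ATRIP (chromosome 3, 48446710 to 48467645), the obligate partner of ATR, had 25.97, 26.01, 26.3, 21.5 and 21.1 CPM in knockout and 28.2, 26.4, 27.1, 22.4 and 23.6 CPM in parental replicates 1 to 5. The knockout libraries lay just below the parental ones of each depth, and the log2 fold change of -0.08 (standard error 0.096) passed neither over all libraries (edgeR adjusted p = 0.580) nor with the replicate block (adjusted p = 0.0883). It passed with depth as a term (adjusted p = 0.0473).

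CHEK1 (ENSG00000149554.15, chromosome 11, 125625136 to 125676255), the kinase that ATR activates, had 63.3, 68.2, 63.7, 81.8 and 82.3 CPM in knockout and 63.7, 62.3, 63.5, 80.5 and 81.1 CPM in parental replicates 1 to 5. The libraries of one depth were close to each other in both genotypes. For CHEK1 the log2 fold change of 0.03 (standard error 0.12, edgeR adjusted p = 0.873) did not pass, nor did it with the replicate block (0.03, standard error 0.036, adjusted p = 0.454) or in either depth alone.

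CHEK2 (ENSG00000183765.24, chromosome 22, 28687743 to 28742422), the kinase that ATM activates, had 10.4, 10.8, 12.04, 11.4 and 11.4 CPM in knockout and 12.4, 11.9, 11.7, 13.4 and 13.6 CPM in parental replicates 1 to 5. Knockout replicate 3 was above parental replicates 2 and 3, and the other knockout libraries were below all parental ones. CHEK2 had a log2 fold change of -0.17 (standard error 0.071, edgeR adjusted p = 0.0962), and the edgeR adjusted p was 0.0194 with the replicate block. The exact two-sided permutation p of CHEK2 was 0.0238, and 0.05 when permuted within each depth. Over all libraries the same permutation test gave 0.0794 for CLSPN and 0.159 for TIPIN. It gave 0.429 or more for ATM, ATR, ATRIP, CHEK1 and TOPBP1. CHEK2 has pseudogene copies in the genome, between which reads can be divided. How many of its reads are shared was not tested.

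**Figure D2:**
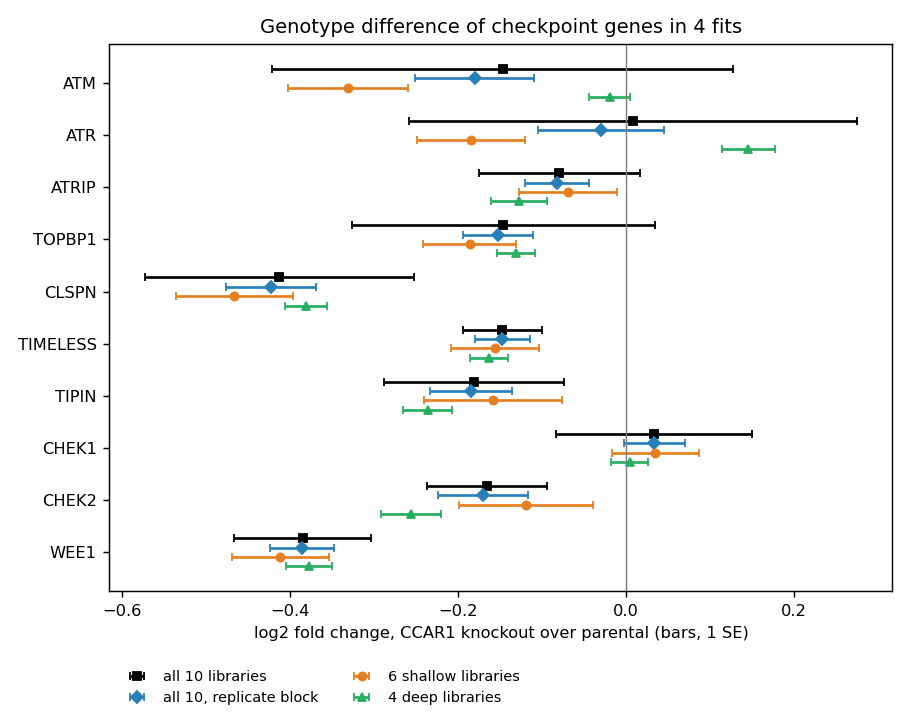
Log2 fold change of each checkpoint gene, knockout over parental, with bars of 1 standard error, from the fit over all 10 libraries, the same with the replicate block, the 6 shallow libraries and the 4 deep libraries. WEE1 and CLSPN lie between -0.47 and -0.38 in the 4 fits, CHEK1 lies close to 0, and ATR lies at -0.18 in shallow and 0.15 in deep samples.

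Counts of partner genes were set against each other within each library, which removes library scaling. The 5 pairs were chosen after values had been seen and were not tested. The share of other gene pairs whose ratios lie apart was not computed. Of single genes, 30.6% had CPM ranges of the genotypes apart in either direction. CLSPN over CHEK1 was 0.46, 0.22, 0.13, 0.46 and 0.47 on the log2 scale in knockout, against 0.75, 0.78, 0.80, 0.89 and 0.81 in parental replicates 1 to 5, so every knockout library had fewer claspin counts per CHEK1 count than any parental library. The mean log2 ratio was 0.35 ± 0.16 in knockout and 0.81 ± 0.050 in parental cells (SD, n = 5). The other 4 ratios overlapped between genotypes. TIPIN over TIMELESS was -2.77 ± 0.19 in knockout and -2.74 ± 0.15 in parental cells. ATRIP over ATR was -0.72 ± 0.71 and TOPBP1 over ATR 0.83 ± 0.22 in knockout, against -0.68 ± 0.51 and 0.94 ± 0.099 in parental cells, and CHEK2 over ATM was -1.40 ± 0.54 in knockout and -1.43 ± 0.31 in parental cells. For CHEK2 over ATM the knockout minus parental difference was 0.21 in shallow and -0.24 in deep samples, and for ATRIP over ATR 0.12 and -0.27, so the near-equal means combine differences of opposite sign. For TOPBP1 over ATR the difference was -0.0033 in shallow and -0.28 in deep samples.

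**Figure D3:**
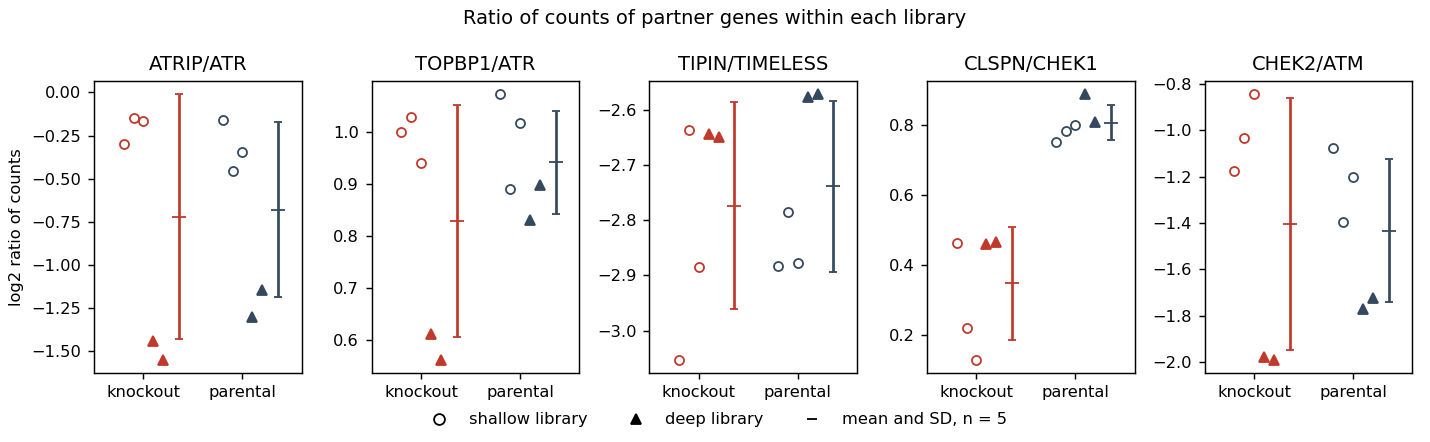
Log2 ratio of the counts of partner genes in each library, knockout left of parental, with open circles for shallow and filled triangles for deep libraries and bars for the mean and SD of 5 libraries. Each panel has its own vertical axis; CLSPN over CHEK1 is the panel in which the genotypes do not meet.

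Genes that overlap a member in the annotation were examined because no source used here says whether reads were counted by strand. TREX1, an exonuclease gene that overlaps ATRIP on the same strand, rose to 18.5 ± 3.93 CPM in knockout, against 12.3 ± 1.05 CPM in parental cells (log2 fold change 0.59, edgeR adjusted p = 0.00816). HSCB, an iron-sulfur cluster chaperone gene opposite CHEK2, rose to 14.8 ± 1.85 CPM, against 10.8 ± 0.510 CPM in parental cells (0.46, edgeR adjusted p = 0.00261). STT3A, which overlaps CHEK1 on the same strand, had 343.5 CPM in knockout and 327.1 CPM in parental cells (edgeR adjusted p = 0.421). CHEK1 itself averaged 71.8 CPM in knockout and 70.2 CPM in parental cells. ACRV1, opposite CHEK1, fell at a low level, to 0.224 CPM in knockout, against 0.471 CPM in parental cells (edgeR adjusted p = 0.0452). How far reads of these neighbours are divided with ATRIP, CHEK1 and CHEK2 was not tested. NPAT, a histone gene regulator opposite ATM, had a log2 fold change of -0.21 (edgeR adjusted p = 0.584, and 0.00534 with the replicate block), close to that of ATM.

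Other genes of the pathway were counted in 6 lists of 65 genes, of which 62 were tested and HUS1B, WEE2 and FBXO6 were too low. In edgeR's test 18 of the 62 fell and 2 rose, beside 16.9% of all genes lower and 19.7% higher. With the replicate block 39 fell and 4 rose, beside 30.1% lower and 31.1% higher. Among 11 genes of the 9-1-1 clamp, its loader and the RPA complex, 2 fell and 1 rose. RPA1, the large subunit of the single-strand binding complex, fell to 139.1 ± 1.83 CPM in knockout, against 194.4 ± 7.14 CPM in parental cells (log2 fold change -0.48, edgeR adjusted p = 2.53e-05), and RHNO1, which binds the clamp and TOPBP1, fell to 39.7 ± 0.623 CPM, against 45.9 ± 2.44 CPM. RAD9B, a clamp subunit paralog, rose at a low level, to 1.16 ± 0.330 CPM, against 0.711 ± 0.141 CPM. RPA1 lies on chromosome 17, whose protein-coding genes had a median log2 fold change of -0.28, and with that median removed it was -0.20 (edgeR adjusted p = 0.00802). With the medians removed the log2 fold change of RHNO1 was -0.14 (adjusted p = 0.0859). RAD9B lost its call without knockout replicate 4 or 5 or parental replicate 1, 2 or 3, with an adjusted p of at most 0.0661.

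Of 10 genes that activate ATM or mark damage sites, 3 fell and 0 rose, beside 16.9% and 19.7% of all genes. The count that rose was also 0 at an unadjusted p under 0.05 and in DESeq2 and limma-voom. With depth as a term 6 fell and 1 rose, beside 31.3% and 32.7% of all genes. RNF8, a ubiquitin ligase at breaks, fell to 20.03 ± 0.604 CPM in knockout, against 26.9 ± 1.75 CPM in parental cells, and the mediator MDC1, which binds phosphorylated H2AX, to 57.2 ± 4.52 CPM, against 75.8 ± 1.17 CPM (edgeR adjusted p = 3.32e-04 and 6.3e-04). Both lie on chromosome 6, where the median was -0.32, and neither passed with it removed (-0.11 and -0.08, edgeR adjusted p = 0.225 and 0.378). The other of the 3 genes of this list that fell was TP53BP1 (log2 fold change -0.52, edgeR adjusted p = 0.00569). It lies on chromosome 15, where the median was 0.02. Of 10 PIKK kinases and their chaperones 2 fell and 0 rose, with the same 0 at an unadjusted p under 0.05 and in the other tools. The fit with depth as a term had 7 lower and 1 higher, beside 31.3% and 32.7% of all genes. TRRAP, a PIKK without kinase activity, fell to 81.9 ± 16.3 CPM, against 125.6 ± 8.84 CPM, and HSP90AA1, which helps fold the kinases, to 3161 ± 513.1 CPM, against 4412 ± 801.7 CPM. TRRAP, on chromosome 7, had an adjusted p of 0.0797 with the median of -0.30 removed, and HSP90AA1 lost its call without knockout replicate 1 or parental replicate 4 or 5 (adjusted p up to 0.0567).

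In the fit without a term for depth, partners of the fork protection complex had the highest share called of the 6 lists. In that list 6 of 9 were lower and 0 higher, beside 16.9% and 19.7% of all genes. The count higher was also 0 at an unadjusted p under 0.05 and in both other tools. With depth as a term 7 of 9 were lower and 1 higher, beside 31.3% and 32.7% of all genes. In that fit the genes that degrade checkpoint proteins or switch the signal off had a higher share, with 10 of 11 lower and 1 higher. CDC45, a part of the replicative helicase, fell to 41.8 ± 3.04 CPM in knockout, against 57.1 ± 2.13 CPM in parental cells, and DDX11, a helicase that works with TIMELESS, to 84.9 ± 8.49 CPM, against 122.7 ± 10.1 CPM (edgeR adjusted p = 3.38e-04 and 6.67e-04). At the CDC25 and CDK end 3 of 11 fell and 0 rose, again 0 at an unadjusted p under 0.05 and in both other tools. There the fit with depth as a term had 6 lower and 1 higher, beside 31.3% and 32.7% of all genes. CDC25A, the phosphatase that opposes WEE1 and is degraded on CHEK1's signal, fell to 48.5 ± 1.69 CPM, against 64.9 ± 2.96 CPM, and its substrate CDK2 to 72.7 ± 0.896 CPM, against 90.1 ± 3.37 CPM (edgeR adjusted p = 1.97e-04 and 6.56e-04). These 4 genes kept their calls with the chromosome medians removed and without any single library.

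Of 11 genes that degrade checkpoint proteins or switch the signal off, 2 fell and 1 rose, beside 16.9% and 19.7% of all genes. USP20, a deubiquitinase that stabilises claspin, rose to 28.6 ± 2.83 CPM in knockout, against 17.8 ± 1.27 CPM in parental cells (log2 fold change 0.68, edgeR adjusted p = 1.15e-04). PPM1D, the phosphatase that turns the checkpoint off, fell to 13.6 ± 0.916 CPM, against 18.8 ± 1.08 CPM, but lies on chromosome 17 and had an adjusted p of 0.0662 with the median removed. DDB1, an adaptor of the CUL4 ubiquitin ligase, fell to 400.7 ± 20.7 CPM, against 443.5 ± 8.58 CPM (edgeR adjusted p = 0.0486). Its call ended without any 1 of 8 libraries, that is all but knockout replicate 1 and parental replicate 2 (adjusted p up to 0.0968).

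Markers of proliferating cells were counted in the same fits. Of 10 such genes (MKI67, TOP2A, PCNA, CCNA2, CCNB1, CDK1, BUB1, AURKA, E2F1 and MYBL2) 4 fell and 0 rose, beside 16.9% of all genes lower and 19.7% higher. With the replicate block 9 fell and 0 rose, beside 30.1% lower and 31.1% higher. With depth as a term 9 fell and 1 rose, beside 31.3% and 32.7% of all genes. The gene that rose there was CCNB1 (log2 fold change 0.095, edgeR adjusted p = 0.0266). CCNA2, CCNB1 and CDK1 are also in the list of the CDC25 and CDK end. The summed level of all 10 was 2123 to 2200 CPM in the shallow knockout and 2713 to 2787 CPM in the shallow parental libraries, and 2646 to 2727 CPM in the deep knockout and 3287 to 3292 CPM in the deep parental libraries. Within each depth the genotypes were apart. In bulk samples, fewer cells in a phase and less RNA per cell cannot be told apart, and the part of this in the members' values was not tested.

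**Figure D4:**
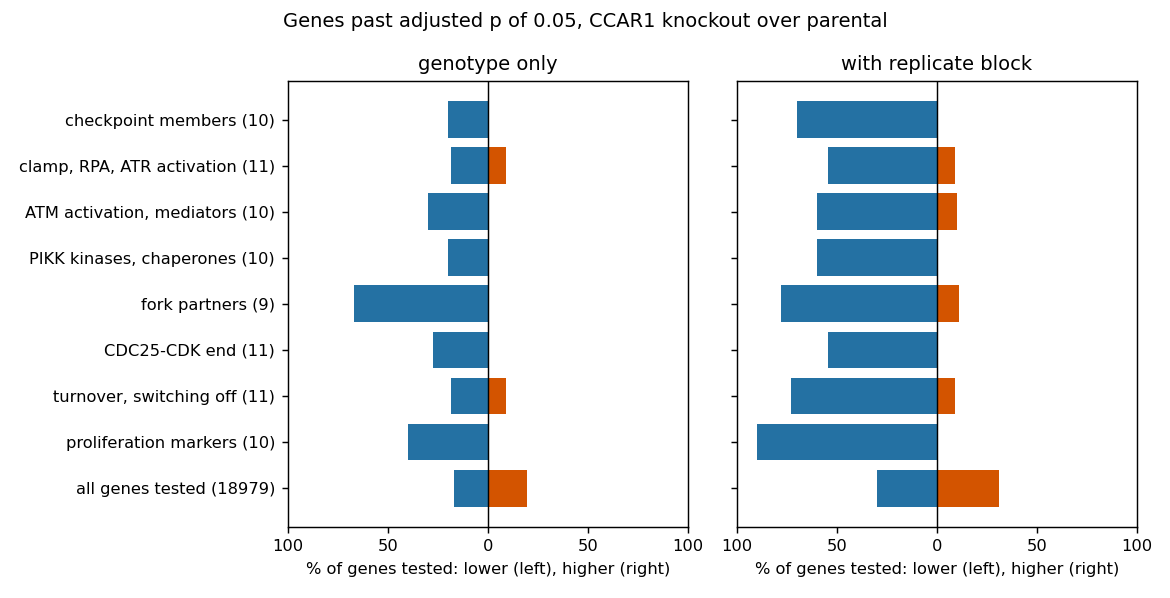
Share of the tested genes of each list past an adjusted p of 0.05, with genes lower in knockout drawn to the left and genes higher in knockout to the right, over all libraries (left panel) and with the replicate block (right panel). Numbers in brackets are genes tested; the bottom bar gives all 18979 genes.

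The member with the smallest adjusted p, WEE1, was compared with 13998 other protein-coding genes by the root mean square difference of mean-centred log2 CPM over the 10 libraries. The nearest were UBAP2 at 0.027, NSD2 at 0.037, ZBTB2 at 0.038 and YWHAG at 0.038, with log2 fold changes of -0.41, -0.38, -0.40 and -0.41. YWHAG encodes a 14-3-3 protein.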

How the data were processed

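The deposited table holds the authors' expected counts (estimated counts) of genes, without depth or length scaling. The submitters' processing notes name kallisto 0.48.0 and hg38. Neither the annotation behind the counts nor how transcripts were summed is known here, and isoforms were not analysed here. The members and gene lists were chosen with earlier results of these data known. Counts were rounded, genes kept by filterByExpr, libraries scaled by TMM and genotype tested by edgeR 4.0.16 (R 4.3.3, robust quasi-likelihood) with Benjamini-Hochberg adjustment over 18979 genes at 0.05. This step was also run on simulated counts, and the outcome is not given here. Standard errors come from the coefficient and its F statistic, and log2 CPM used a prior count of 2. Named genes are the 10 members, CCAR1 and, per list, up to 2 in each direction with the smallest adjusted p. TP53BP1, PRKDC, SMG1 and MTOR are named in addition. Alternatives were DESeq2 1.42.0, limma-voom (limma 3.58.1), 2 other scalings, 2 other filters, no robust step, a depth term, each depth alone, chromosome medians removed, a replicate block and each library left out. Gene positions are from GENCODE 29 (GRCh38), matched for 95.1% of genes.

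Same-numbered samples of the genotypes deviated together (correlation across genes 0.586 to 0.898), which by the rule used pairs them; other numbers of the same depth did so too (0.595 to 0.900), while same-numbered pairs centred on their own depth gave -0.060 to -0.001. No libraries were merged, since replicates of one depth had a chi-square of 6.70 to 25.5 per gene.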

Additional observations from a re-analysis of the deposited data

How the results depend on the processing

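The count of members lower in knockout, 2 over all libraries, was 1 with library size only (13.7% of all genes lower), 1 without a filter on low counts (5.93%), 1 with at least 1 CPM in 5 libraries (19.6%), 4 with DESeq2 (20.8%), 7 with the replicate block (30.1%), 8 with depth as a term (31.3%), 6 in the shallow libraries alone (26.2%) and 7 in the deep libraries alone (28.1%), where 1 member, ATR, was also higher. It was 1 to 3 when single libraries were left out, and the count of members higher was 0 each time. The 6 other pathway lists together had 18 genes lower and 2 higher, beside 16.9% and 19.7% of all genes. The counts were 39 and 4 with the replicate block (30.1% and 31.1%) and 42 and 6 with depth as a term (31.3% and 32.7%). They were 36 lower in the shallow (26.2%) and 46 and 7 in the deep libraries alone (28.1% and 28.9%). Without a filter 1 was higher (7.62%). With single libraries left out 14 to 19 were lower (14.4% to 16.8%) and 1 to 2 higher (17% to 19.5%). Genes called in the whole table numbered 6939 over all libraries, 11619 with the block, 12149 with depth as a term, 15320 in the deep libraries alone, and 6096 to 6905 with single libraries left out. The genotype by depth interaction called 0 members, 2 without a filter and 0 to 2 with single libraries left out.

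WEE1 stayed lower and past the threshold in all 12 alternatives and all 10 fits without a library (log2 fold change -0.43 to -0.35 with single libraries left out). TIMELESS lost its call with library size only, without a filter and with at least 1 CPM in 5 libraries (edgeR adjusted p = 0.225, 0.226 and 0.0571), and with chromosome medians removed (0.265). The log2 fold change of ATR, 0.01 over all libraries, was -0.18 in the shallow libraries alone. It was also below 0, between -0.03 and -0.01 and not past the threshold, with DESeq2 size factors, without a filter, with DESeq2, limma-voom, the replicate block, depth as a term or chromosome medians removed, so its sign is not fixed. The replicate block changed no call of TIMELESS, WEE1, CHEK1, ATR or ATRIP. Members had 561 to 56324 counts per library.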
